A study of Rattus norvegicus with 16 samples.

Results

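Chemokines and their receptors were followed in the mammary gland of young female rats as the gland passed from postnatal day (PND) 35 to PND 50. All gene symbols on the array that begin with Ccl, Cxcl, Cx3cl, Xcl, Ccr, Cxcr, Cx3cr or Xcr and a digit were taken, which gave 50 genes of the 14324 symbols named there. They comprised 33 ligands and 17 receptors, each measured by a single probe set. Of these, 43 lay above a filter on dim genes (a log2 value of 5.661, the 25th percentile over the probe sets) and were tested among 11796 genes, and the other 7 were too dim. The animals were Wistar Han rats on a diet free of plant estrogens, born to dams gavaged once a day from gestational day 1 to weaning at PND 21. The dams received genistein (a soy isoflavone that binds estrogen receptors), vinclozolin (an antiandrogenic fungicide), both together, or, in the controls, no compound according to the labels. The daily dose of either compound, alone or combined, was 1 mg per kg of body weight. Treatment and age together made 8 groups with 2 arrays apiece, and each of the 16 arrays carried pooled total RNA of 5 animals, taken as 1 female per litter. The spread measured here is thus between pools, and that between animals is averaged within them.

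Chemokines are small secreted proteins that bind G protein-coupled receptors on leukocytes and direct their migration along a gradient. They are named by the spacing of their first cysteines, as CC, CXC, XC or CX3C, and many CC and CXC ligands share receptors while CX3CL1, XCL1 and CXCL16 each have essentially 1 receptor. In the pubertal mammary gland, eosinophils and macrophages recruited through chemokines gather around the growing terminal end buds, and CCL11 (eotaxin) is a known attractant of the eosinophils.

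Promoter sequences were available for 39 of the 50 genes in a RefSeq table of the assembly GRCr8, and the 250 bases before each annotated start were searched on both strands for 6 motifs. A kappaB motif, the site type bound by NF-kappaB and searched as GGG, any 2 bases and then TTTCC or TTCCC, was found in 8 of the 39 (20.5%) and in 3.06% of all 27457 promoters. The 8 were Ccl9, Ccl19, Ccl20, Ccr3, Cxcl1, Cxcl2, Cxcl6 and Cxcl9. The letters TATAAA were found in 11 of the 39 (28.2%, against 13.1% of all promoters) and the AP-1 motif TGANTCA in 7 (17.9%, against 6.36%). The interferon-stimulated response element, searched as GAAA, any 2 bases and GAAA, was found in 2, Ccl19 and Cxcl10 (5.13%, against 3.29%). A STAT motif, TTC and GAA with any 3 bases between them, was found in 4 (10.3%, against 7.52%), and the form with 4 bases between them in 3 (7.69%, against 6.29%). A match is a description of the letters in this window and not a measured binding site. Of the 18 genes with a sequence that rose between the ages, 2 held a kappaB motif, and of the 3 that fell, 0 did. The promoters below are shown because Cx3cl1 had one of the larger age differences, Cxcl1 carries the kappaB motif, and the neighbouring genes Cxcl10 and Cxcl11 were high in the same pool. Each runs 5′ to 3′ along the strand of the gene, and capitals mark the motifs found.
Cx3cl1 (chr19:10242821-10243070, minus strand; capitals mark TATAAA): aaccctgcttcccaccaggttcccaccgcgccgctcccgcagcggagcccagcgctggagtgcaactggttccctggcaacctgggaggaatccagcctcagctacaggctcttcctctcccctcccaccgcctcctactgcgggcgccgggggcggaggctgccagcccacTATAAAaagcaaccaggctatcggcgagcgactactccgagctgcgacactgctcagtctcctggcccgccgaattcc
Cxcl1 (chr14:17479322-17479571, minus strand; capitals mark 2 kappaB matches): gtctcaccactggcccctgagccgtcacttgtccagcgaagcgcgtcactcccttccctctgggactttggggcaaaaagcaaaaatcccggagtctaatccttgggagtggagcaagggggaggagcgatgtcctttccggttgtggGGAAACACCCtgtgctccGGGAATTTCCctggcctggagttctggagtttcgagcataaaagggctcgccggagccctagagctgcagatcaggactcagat
Cxcl10 (chr14:15988816-15989065, plus strand; capitals mark, in order, the interferon response element, TATAAA, the STAT motif with 4 bases and AP-1): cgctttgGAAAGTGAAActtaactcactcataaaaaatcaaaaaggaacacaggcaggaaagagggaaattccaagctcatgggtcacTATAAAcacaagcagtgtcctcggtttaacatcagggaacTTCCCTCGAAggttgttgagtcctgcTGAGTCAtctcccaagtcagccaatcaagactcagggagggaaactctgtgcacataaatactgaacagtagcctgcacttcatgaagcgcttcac
Cxcl11 (chr14:15973478-15973727, plus strand; capitals mark, in order, the STAT motif with 3 bases, AP-1 and TATAAA): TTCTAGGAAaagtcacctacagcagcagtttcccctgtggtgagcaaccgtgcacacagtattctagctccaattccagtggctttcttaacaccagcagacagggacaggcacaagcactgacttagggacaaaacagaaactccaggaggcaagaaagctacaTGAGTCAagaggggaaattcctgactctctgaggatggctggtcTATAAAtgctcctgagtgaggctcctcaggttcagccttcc

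Pearson's r between the pools of 1 group ranged from 0.9893 to 0.9966, and it was lowest for those given vinclozolin at PND35. Those pools had high values of skin and hair follicle markers. The mean level of 7 such markers, centred on the 16 arrays, was 2.81 and 2.38 on the log2 scale there and between -0.53 and -0.24 in the other 14. The source of that difference was not tested, and both pools belong to the same exposure. The skeletal muscle level varied more widely, from -2.11 to 2.34, and was highest in mixture PND35 replicate 2. All 14 luminal epithelial markers passed the filter. Array number limits the precision of every comparison, and the median standard error (SE) of a log2 difference was 0.0471 in the treatment-averaged age comparison and 0.0941 between 2 groups.

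More chemokine and receptor genes rose than fell between PND35 and PND50. Averaged over the 4 treatments, 22 of the 43 tested genes (51.2%) rose past the limma test at an adjusted p of 0.05, where 19.4% of all tested genes rose. Another 4 (9.3%) fell, where 25.2% of all genes fell. The median log2 difference, PND50 minus PND35, was 0.16 over the 43 and -0.01 over all genes. By role, 16 of 29 ligands rose and 2 fell, and 6 of 14 receptors rose and 2 fell. In 6 genes each of the 8 PND50 pools lay above each of the 8 PND35 pools, which was so for 1.77% of all genes, and in 0 genes was the order the opposite (3.98% of all). Of the 26 calls, 20 remained past the test without each of the 16 pools in turn (17 of those that rose, 3 of those that fell). With the skeletal muscle level of each pool as a covariate, a choice made after the data were seen, limma called 0 of the 43 (15 at an unadjusted p under 0.05) and 27 of 11796 genes, and 30 of the 43 kept their sign. The muscle level itself differs between the ages, and without both mixture PND35 pools 13 genes rose and 3 fell.

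**Figure D1:**
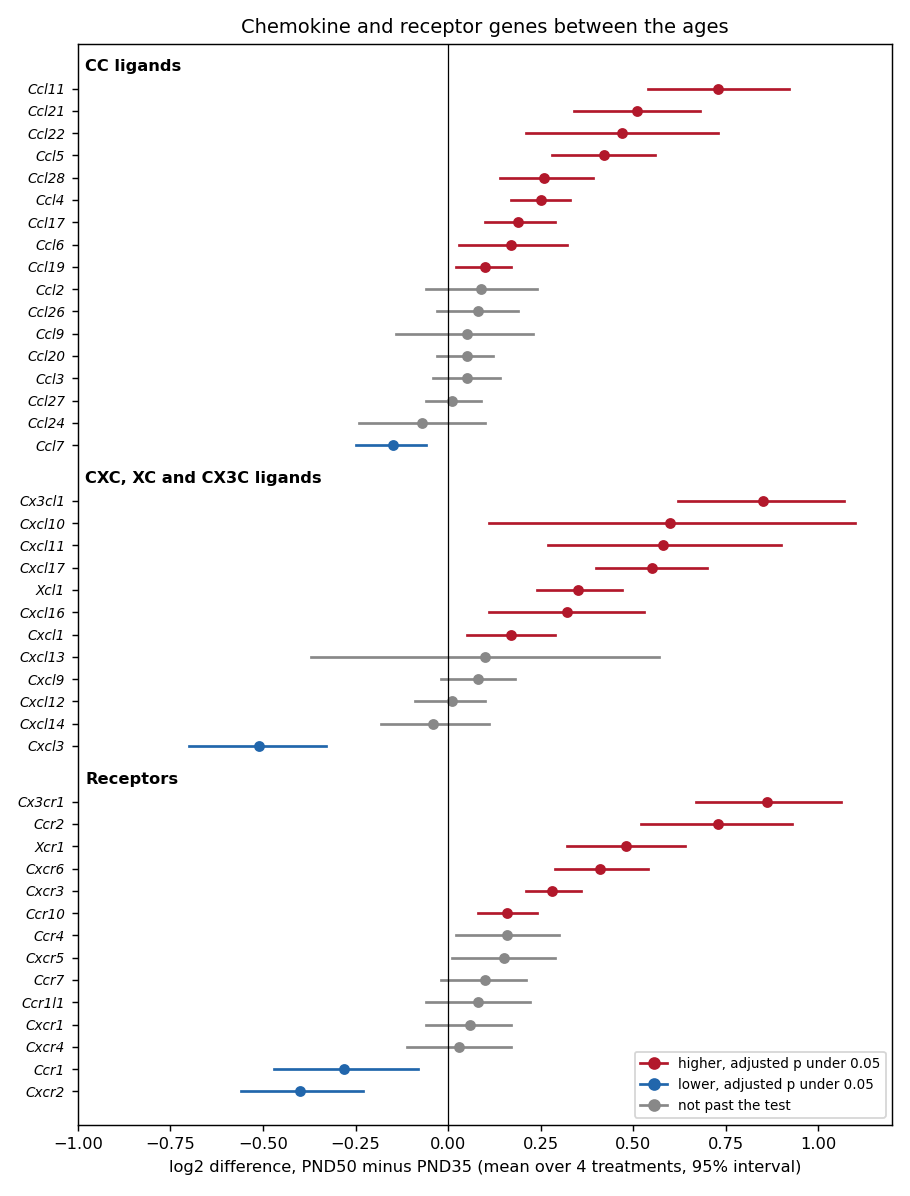
Difference in log2 intensity between PND50 and PND35, averaged over the 4 treatments, for the 43 tested chemokine and receptor genes, with 95% intervals; red marks genes that rose, blue those that fell and grey those not past the limma test at an adjusted p of 0.05. Cx3cr1 (0.86) and Cx3cl1 (0.85) lie farthest to the right and Cxcl3 (-0.51) farthest to the left.

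Fractalkine and its receptor had the 2 largest differences of the 43. Cx3cl1 encodes fractalkine, a membrane-anchored chemokine of epithelium and endothelium. Its log2 values had a lowest, median and highest of 8.43, 8.73 and 9.46 in the PND35 pools and 9.38, 9.62 and 9.82 at PND50. Genistein PND35 replicate 1 (9.46) was the only pool of the younger age to reach the older range. Cx3cl1 thus rose 1.8-fold (0.85, SE 0.10, adjusted p = 0.000189, n = 8 pools per age). Cx3cr1, the receptor on monocytes, macrophages and subsets of T and natural killer (NK) cells, had 6.78, 7.29 and 7.69 at PND35 and 7.71, 8.08 and 8.57 at PND50. The ages did not overlap, and the mixture pools stood lowest at PND35 (6.78 and 6.97) and highest at PND50 (8.40 and 8.57). Cx3cr1 rose 1.82-fold (0.86, SE 0.09, adjusted p = 9.58e-05).

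Both partners also rose in the couples of Xcl1 with Xcr1 and Cxcl16 with Cxcr6. Xcl1, a chemokine of activated T and NK cells, had 6.05, 6.28 and 6.53 at PND35 and 6.43, 6.63 and 6.78 at PND50, and rose by 0.35 (SE 0.05, adjusted p = 0.000559). Its receptor Xcr1, a marker of cross-presenting dendritic cells, had 6.40, 6.46 and 6.81 against 6.75, 6.97 and 7.19 and rose by 0.48 (SE 0.07, adjusted p = 0.00059). In both genes the ages overlapped because of genistein PND35 replicate 1. Cxcl16, a transmembrane chemokine and scavenger receptor, had 9.56, 9.96 and 10.27 at PND35 and 10.03, 10.25 and 10.62 at PND50. It rose by 0.32 (SE 0.10, adjusted p = 0.0203), but the genistein pools ran the other way, from 10.21 and 10.27 at PND35 to 10.05 and 10.16, and without vinclozolin PND50 replicate 2 the call was lost (0.27, adjusted p = 0.0513). Its receptor Cxcr6, found on effector T cells and NK T cells, had 6.63, 6.80 and 6.90 against 7.01, 7.23 and 7.37. Its ages did not overlap, and it rose 1.33-fold (0.41, SE 0.06, adjusted p = 0.000293). Beside Xcr1, of 6 tested dendritic cell markers 3 rose and 2 fell, where 19.4% and 25.2% of all genes did.

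**Figure D2:**
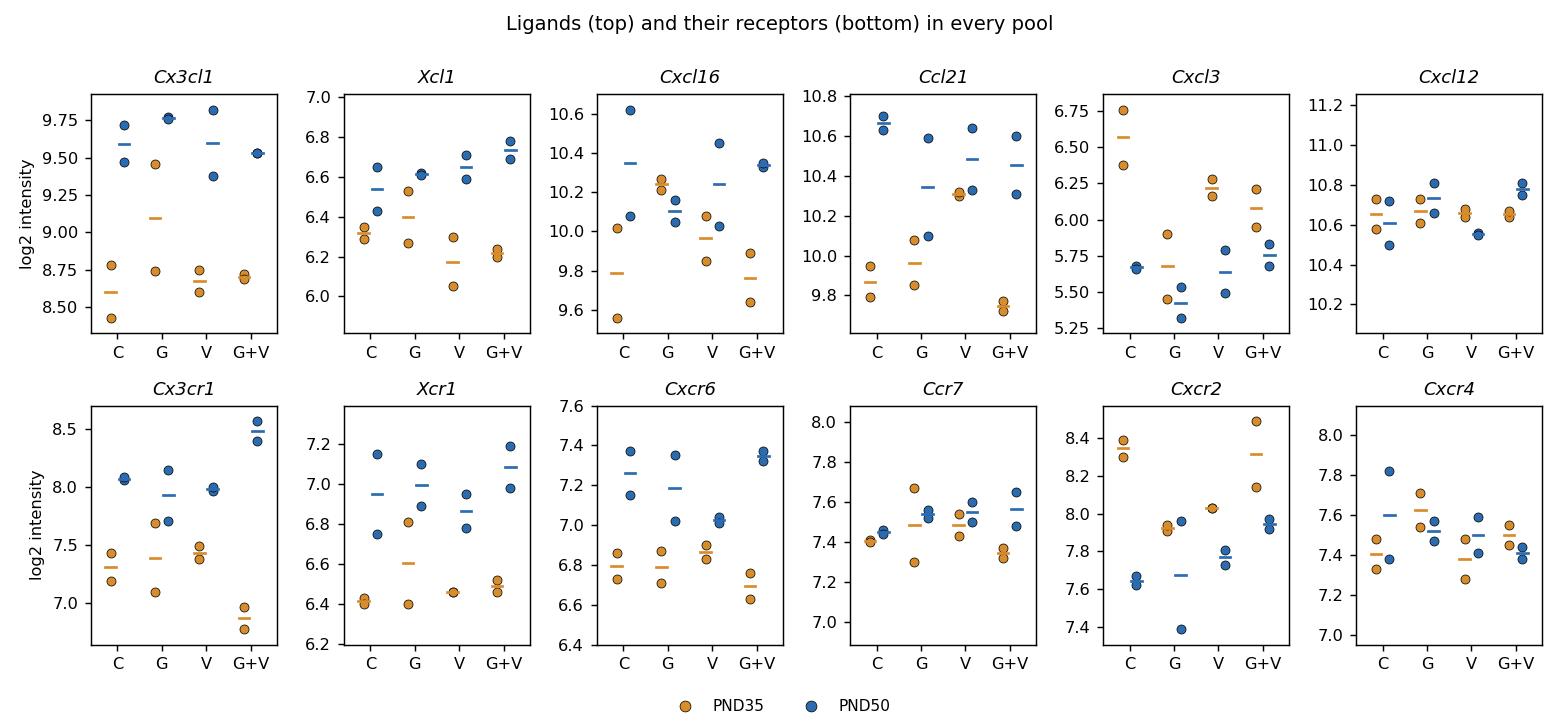
Log2 intensity of 6 ligands (top) and a receptor of each (bottom) in every pool, by treatment (C control, G genistein, V vinclozolin, G+V mixture) and age; points are pools of 5 animals, bars are means of 2 pools, and each panel has its own axis. Cx3cr1 and Cxcr6 separate the ages completely, Cxcl3 and Cxcr2 have lower medians at PND50 (5.67 against 6.19 and 7.77 against 8.09), and Cxcl12 and Cxcr4 overlap between the ages.

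The receptor Cxcr3, carried by type 1 helper and cytotoxic T cells and NK cells, was another gene whose ages did not overlap. Its lowest, median and highest values were 6.19, 6.36 and 6.41 at PND35 and 6.52, 6.61 and 6.70 at PND50, a rise of 0.28 (SE 0.03, adjusted p = 0.000185). Its 3 ligands, which interferon gamma induces and which lie next to each other in the genome, did not share a course. Cxcl11 had 5.73, 5.99 and 6.24 at PND35 and 6.06, 6.46 and 7.89 at PND50 and rose 1.5-fold (0.58, SE 0.14, adjusted p = 0.00728). Cxcl10 had 7.23, 7.88 and 9.16 against 7.66, 8.39 and 10.24, with wide spread at both ages. Its rise of 0.60 (SE 0.23, adjusted p = 0.0465) was lost in 11 of the 16 fits that left out 1 pool (adjusted p up to 0.105). Cxcl9 had 8.77, 8.96 and 9.25 against 8.78, 9.12 and 9.22 and did not pass (0.08, 95% interval -0.02 to 0.18, adjusted p = 0.181).

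Among the CC ligands, Ccl11 had the largest difference. Eotaxin had 6.40, 6.69 and 6.97 in the PND35 pools and 7.09, 7.41 and 7.72 at PND50. All PND50 pools were above all PND35 pools, and the gene rose 1.66-fold (0.73, SE 0.09, adjusted p = 0.000169). The other eotaxin-type ligands did not follow: Ccl24 had a difference of -0.07 (95% interval -0.24 to 0.10) and Ccl26, at 5.43 to 5.87 just above the filter, 0.08 (-0.03 to 0.19). Their receptor Ccr3, the main chemokine receptor of eosinophils, lay under the filter, with 4.06 to 4.39 at PND35 and 4.49 to 4.94 at PND50. Of 10 tested eosinophil and mast cell markers 8 fell and 1 rose beside the rise of Ccl11. Among all genes 25.2% fell and 19.4% rose. The list joins markers of both cell types, so its count does not show the course of eosinophil markers alone. The mean marker level went from 0.12 to 0.32 at PND35 to -0.39 to -0.07 at PND50. The part of cell numbers in these differences was not tested, since in whole tissue fewer cells of a type and less RNA per cell cannot be told apart.

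Ccl4 and Ccl5, ligands that T cells, NK cells and macrophages secrete, separated the ages as well. Ccl5 (RANTES) had 6.92, 7.10 and 7.36 at PND35 and 7.44, 7.52 and 7.61 at PND50 and rose 1.33-fold (0.42, SE 0.06, adjusted p = 0.000604). Ccl4 (macrophage inflammatory protein 1 beta) had 6.36, 6.45 and 6.62 against 6.63, 6.72 and 6.82 and rose by 0.25 (SE 0.04, adjusted p = 0.000375). Ccl3, the next gene to Ccl4 in the genome and its close relative, did not pass (0.05, 95% interval -0.04 to 0.14, adjusted p = 0.361). Of 9 tested T and NK cell markers all 9 rose, where 19.4% of all genes did. Among them were Cd3e of the T cell receptor complex, up by 0.77 (SE 0.05), and Nkg7 of cytotoxic granules, up by 0.79 (SE 0.06). The mean level of the 9 markers ran from -0.38 to -0.11 in the younger pools and from 0.17 to 0.47 in the older. The part of these markers in the rise of Ccl4, Ccl5, Xcl1, Cxcr3 and Cxcr6 was not tested. Cd3d, Cd3g, Cd2, Gzmk and Ncr1, also on that list, were under the filter.

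**Figure D3:**
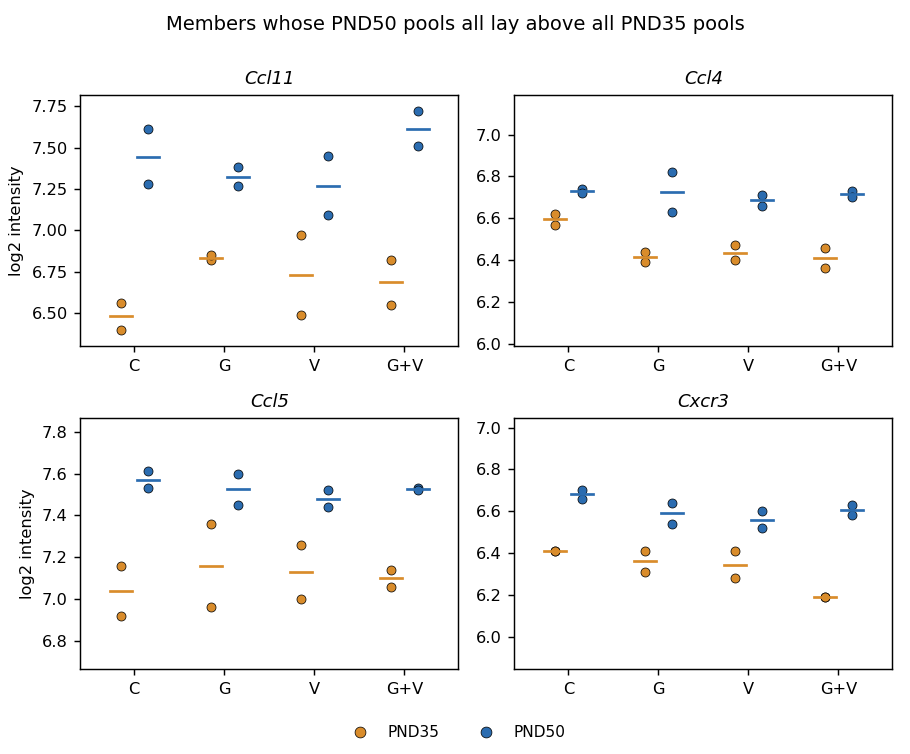
Log2 intensity of Ccl11, Ccl4, Ccl5 and Cxcr3 in every pool, by treatment (C control, G genistein, V vinclozolin, G+V mixture) and age; points are pools, bars are means of 2 pools, and each panel has its own axis. In each gene the lowest PND50 pool is above the highest PND35 pool, as in Ccl11 with 7.09 against 6.97.

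The ligands of the lymphoid homing receptor Ccr7 rose, and the receptor did not pass. Ccl21, which lymphatic endothelium and lymph node stroma produce, had 9.72, 9.90 and 10.32 at PND35 and 10.10, 10.60 and 10.70 at PND50 and rose 1.43-fold (0.51, SE 0.08, adjusted p = 0.000559). Ccl19 rose by only 0.10 (SE 0.03, adjusted p = 0.0354), and that call was lost in 12 of the 16 fits without 1 pool and with quantile normalization (0.04, adjusted p = 0.368). Ccr7 had 7.30 to 7.67 at PND35 and 7.44 to 7.65 at PND50 (0.10, 95% interval -0.02 to 0.21, adjusted p = 0.148), and it passed without genistein PND35 replicate 1 (0.14, adjusted p = 0.0136). Cxcl13, the B cell attractant of follicles, spread from 9.71 to 11.55 over the pools with no separation of the ages (0.10, SE 0.22), and its receptor Cxcr5 had 0.15 (adjusted p = 0.069). Of 6 tested markers of lymph node stroma and high endothelial venules 1 rose and 1 fell, and of 5 B cell and plasma cell markers 3 rose. Among all genes 19.4% rose and 25.2% fell.

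Cxcl17 and Ccl28, ligands that epithelium secretes, rose as well. Cxcl17, known from mucosal tissue, had 6.86, 7.11 and 7.56 at PND35 and 7.37, 7.67 and 8.09 at PND50 and rose 1.47-fold (0.55, SE 0.07, adjusted p = 0.000217). Both mixture pools of the older age, at 8.0 and 8.09, were its highest. The genistein pools of Cxcl17 went from 7.56 and 7.21 to 7.51 and 7.37 (0.05, SE 0.14, not past the test). The controls had 0.66 (SE 0.14, not past the test) and the mixture 1.02. Ccl28, which epithelium of mucosa and of the lactating gland secretes to attract antibody-forming cells, rose by 0.26 (SE 0.06) from a median of 6.35 to 6.67. Its receptor Ccr10 rose by 0.16 (SE 0.04) from 7.37 to 7.56, and the other ligand of Ccr10, the skin chemokine Ccl27, had 0.01 (95% interval -0.06 to 0.09). Ccl22 and Ccl17, dendritic cell ligands of Ccr4 that flank Cx3cl1 in the genome, rose by 0.47 (SE 0.12) and 0.19 (SE 0.04), and Ccr4 did not pass (0.16, adjusted p = 0.0666). Beside these, 8 of 14 luminal epithelial markers rose and none fell, and of 6 tested dendritic cell markers 3 rose and 2 fell. Of all genes, 19.4% rose and 25.2% fell. The luminal markers did not rise after genistein, with 5 positive and 9 negative age differences (median -0.07). In the controls, after vinclozolin and after the mixture 13, 11 and 14 of the 14 were positive. The part of either list in the result was not tested.

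Averaged over the treatments, Ccr2, the receptor that brings inflammatory monocytes into tissue, rose while its main ligand Ccl2 did not pass. Ccr2 had 9.04, 9.21 and 10.19 at PND35 and 9.75, 10.16 and 10.31 at PND50 and rose 1.65-fold (0.73, SE 0.09, adjusted p = 0.000253). The high PND35 value was control replicate 1, and the other 7 pools of that age were at 9.52 or below. Ccl2 (monocyte chemoattractant protein 1) had 10.85 to 11.62 against 10.83 to 11.68 (0.09, 95% interval -0.06 to 0.24). After the mixture alone Ccl2 rose past the test, by 0.50, a call that 2 of 25 other settings lost. In the other treatments it did not pass, with -0.17 (SE 0.14) in the controls and 0.11 (SE 0.14) after genistein. Of 14 macrophage markers 5 rose and 1 fell, where 19.4% and 25.2% of all genes did. Ccl6, a macrophage chemokine of rodents, rose by 0.17 (SE 0.07, limma adjusted p = 0.0496), which 12 of the 16 fits without 1 pool lost. In the controls alone Ccl6 ran the other way, from 9.11 and 9.23 at PND35 to 8.87 and 8.98 (-0.25, SE 0.13, not past the test). After genistein it had 0.38 (SE 0.13), which did not pass either. Ccl9 had 0.05 (-0.14 to 0.23).

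The 4 genes that fell were Cxcl3, Cxcr2, Ccl7 and Ccr1 (9.3% of the 43, where 25.2% of all genes fell). Other receptors of monocytes, Ccr2 (0.73) and Cx3cr1 (0.86), rose. Cxcl3, a neutrophil attractant, had 5.45, 6.19 and 6.76 at PND35 and 5.32, 5.67 and 5.83 at PND50 and fell by 0.51 (SE 0.08, adjusted p = 0.000738). Its PND50 mean of 5.62 lay under the filter of 5.661, and it passed the filter through its PND35 mean of 6.14. Values so low may hold little signal above background. Cxcr2, the receptor of Cxcl3, had 7.91, 8.09 and 8.49 against 7.39, 7.77 and 7.97 and fell by 0.40 (SE 0.07, adjusted p = 0.0018). Ccl7, a monocyte chemokine, fell by 0.15 (SE 0.04, adjusted p = 0.0131). Ccr1, a receptor of monocytes and neutrophils, fell by 0.28 (SE 0.09, adjusted p = 0.0269), and 7 of the 16 fits without 1 pool lost that call (adjusted p up to 0.0651). Cxcl1, which shares Cxcr2 with Cxcl3 and carries the kappaB motifs shown, rose instead by 0.17 (SE 0.06, adjusted p = 0.0291), a call that 8 of the 16 fits lost. Within treatments Cxcl1 passed only after the mixture (0.50). It had 0.10 (SE 0.11) in the controls and 0.01 (SE 0.11) after genistein, and its vinclozolin means were 6.90 at PND35 and 6.96 at PND50. Of 5 tested neutrophil markers 2 rose and 1 fell, where 19.4% and 25.2% of all genes did.

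Cxcl12 and the other genes described here did not pass the age test. Cxcl12, the stromal ligand that retains stem cells and lymphocytes, lay between 10.50 and 10.81 in all 16 pools, with an age difference of 0.01 (SE 0.04, 95% interval -0.09 to 0.10). Its receptor Cxcr4 had 7.28 to 7.82 and a difference of 0.03 (-0.11 to 0.17). Cxcl14, an epithelial and stromal chemokine, had -0.04 (-0.18 to 0.11), Ccl20 0.05 (-0.03 to 0.12), Cxcr1 0.06 (-0.06 to 0.17) and Ccr1l1, a Ccr1-like gene, 0.08 (-0.06 to 0.22). These intervals leave room for differences of up to about 0.22 on the log2 scale.

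Set out as 32 textbook ligand and receptor couples, a list drawn up after the values were seen, 21 had both partners tested. In 6 of them both rose (Cx3cl1 with Cx3cr1, Xcl1 with Xcr1, Cxcl16 with Cxcr6, Cxcl10 and Cxcl11 with Cxcr3, and Ccl28 with Ccr10). In 2 both fell (Cxcl3 with Cxcr2 and Ccl7 with Ccr1), in 3 the partners went opposite ways, and in 10 at least 1 did not pass. Cxcl3 had a PND50 mean of 5.62, under the filter of 5.661. The couples share members and were not tested as a set. Since 16 of 29 tested ligands and 6 of 14 tested receptors rose, some couples would hold 2 risen partners without any tie between them. The count of 6 was not compared with the count so expected. Neighbours in the genome moved together in some clusters and apart in others. Ccl17, Cx3cl1 and Ccl22 all rose, and of the neighbours Ccl5, Ccl9, Ccl6, Ccl3 and Ccl4, Ccl5, Ccl6 and Ccl4 rose and none fell. In the controls alone Ccl6 had -0.25, not past the test. In the run of Ccl2, Ccl7, Ccl11 and Ccl12, Ccl11 rose, Ccl7 fell and Ccl2 did not pass. In the receptor cluster that holds Cxcr6, Xcr1, Ccr1, Ccr3, Ccr1l1 and Ccr2, Ccr1 fell while Cxcr6, Xcr1 and Ccr2 rose.

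The 7 dim genes were Ccl12, Ccl25, Ccr3, Ccr6, Ccr9, Cxcl2 and Cxcl6. Their means over the 16 arrays ran from 4.44 for Ccr3 to 5.48 for Cxcl6, where the tested gene nearest the filter, Ccl26, had 5.67. Without the filter 38.3% of 14324 genes passed in either direction, and 4 of the 7 rose: Ccr3 by 0.37 (SE 0.07, adjusted p = 0.00161), Ccl12 by 0.20 (SE 0.07), Cxcl6 by 0.16 (SE 0.05) and Ccr6 by 0.12 (SE 0.04). Values so low may hold little signal above background, and no detection calls were used.

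Other genes of chemokine biology were taken from lists and tested in the same fit, in which 19.4% of all genes rose and 25.2% fell. Of 25 receptor signalling genes 9 rose (36%) and 4 fell (16%), and the median of the list was 0.09. The Src family kinases Fgr and Lyn rose by 0.37 (SE 0.04) and 0.42 (SE 0.08), and Arrb1, a beta-arrestin that desensitises receptors, rose by 0.28 (SE 0.05). Gnai3, an inhibitory G protein subunit, fell by 0.17 (SE 0.03). Of 14 leukocyte adhesion genes 8 rose and 2 fell (median 0.17): Itgal, a chain of the integrin LFA-1, rose by 0.39 (SE 0.05) and Selplg, the selectin ligand PSGL-1, by 0.31 (SE 0.05), whereas Vcam1, the endothelial ligand of the integrin VLA-4, fell by 0.35 (SE 0.06). Of 9 tested cytokines that induce chemokine genes 4 rose and none fell (median 0.14), with Il33, an epithelial alarmin, up by 0.41 (SE 0.07) and Il1b up by 0.24 (SE 0.06).

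Of 12 transcription factors and regulators of the NF-kappaB and STAT pathways 5 rose (41.7%) and 1 fell (8.33%), with a median of 0.11. Irf8, a factor of monocytes and dendritic cells, rose by 0.42 (SE 0.04), the NF-kappaB subunit Rela by 0.37 (SE 0.04) and Stat3 by 0.28 (SE 0.05), and Nfkbia, an inhibitor of NF-kappaB, fell by 0.24 (SE 0.06). Of 7 genes that cleave or retain chemokines 2 rose and 2 fell (28.6% each, median 0.03), near the shares of all genes (19.4% and 25.2%). Mmp12, a macrophage elastase, rose by 0.88 (SE 0.11), Adam17, a sheddase that cleaves fractalkine, fell by 0.25 (SE 0.03) and Dpp4, a protease that trims many chemokines, fell by 0.30 (SE 0.10). Of 5 atypical and chemokine-like receptors 1, Fpr1, rose (0.18, SE 0.04), which is 20% of the list and near the share of all genes. Ackr3, a scavenger of CXCL12, had 0.21 (limma adjusted p = 0.059). The platelet chemokines Pf4 (-0.01) and Ppbp (0.13, adjusted p = 0.0683) did not pass.

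Within single treatments the age comparison rested on 2 pools against 2. In the controls 2 of the 43 genes rose (0.627% of all genes did) and 1 fell (0.237%). Ccl11 went from 6.40 and 6.56 to 7.28 and 7.61 (0.96, SE 0.17, adjusted p = 0.0332), Ccl21 from 9.95 and 9.79 to 10.63 and 10.70 (0.79, SE 0.16, adjusted p = 0.0419) and Cxcl3 from 6.76 and 6.38 to 5.68 and 5.66 (-0.90, SE 0.17, adjusted p = 0.0354). The PND50 values of Cxcl3 lay about at the filter of 5.661. All 3 calls were lost without any 1 of the 4 control pools or of the 2 mixture PND50 pools, and Ccl21 also without either mixture PND35 or vinclozolin PND50 pool, with adjusted p up to 0.313. Over the leave-one-out fits the count of genes that rose ran from 0 to 6.

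After genistein 2 genes rose, Ccr2 by 0.85 (SE 0.19, adjusted p = 0.0438) and Ccl4 by 0.31 (SE 0.07, adjusted p = 0.0454), where 0.814% of all genes did, and 0 fell (1.96%). The Ccr2 call was lost in 14 of 25 other settings and that of Ccl4 in 20 of 24, most without 1 pool; without genistein PND50 replicate 1 the differences were 0.61 and 0.22. After vinclozolin 2 rose, Cx3cl1 by 0.92 (SE 0.21, adjusted p = 0.0401) and Xcl1 by 0.47 (SE 0.11, adjusted p = 0.0421), where 1.14% did, and 0 fell (1.64%). These calls were lost in 14 of 25 and 14 of 24 other settings, with Cx3cl1 at 0.70 without vinclozolin PND50 replicate 2 and Xcl1 at 0.35 without vinclozolin PND35 replicate 2. After the mixture 20 rose and 0 fell, where 14.4% and 18.3% of all genes did. The largest were Cx3cr1, up 3.05-fold (1.61, SE 0.18, adjusted p = 0.000409), Cxcl11 (1.22, SE 0.29) and Ccr2 (1.06, SE 0.19). Without mixture PND50 replicate 2 Cxcl11 had 0.65 and did not pass (adjusted p = 0.0669). That count was 13 without either mixture PND35 pool and 10 without mixture PND50 replicate 2. In the mixture groups all 9 muscle markers fell (median -3.06) and all 9 T and NK cell markers rose (median 0.62), and their part in the count was not tested. The difference in age change between an exposed group and the controls passed limma for 0 of the 43 genes in each exposure, where 0.381% of all genes passed, all of them lower, for vinclozolin and 0% for the others. At an unadjusted p under 0.05 there were 6 for genistein (7.68% of all genes), 4 for vinclozolin (6.71%) and 7 for the mixture (12.2%). The smallest p belonged to Ccl6 (0.63, SE 0.19, adjusted p = 0.568), Cxcl17 (-0.60) and Cxcl9 (0.38) for genistein. For vinclozolin they belonged to Ccl6 (0.65, SE 0.19, adjusted p = 0.416), Ccl21 (-0.62) and Ccl3 (0.32), and for the mixture to Ccl2 (0.67, SE 0.19, adjusted p = 0.293), Cx3cr1 (0.85, SE 0.26, adjusted p = 0.306) and Cxcl1 (0.41). The larger count after the mixture is therefore not shown to differ from the controls by gene.

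At PND35 the 3 exposure comparisons share the same 2 control pools. In 6 of the 43 genes, Ccl2, Ccl3, Ccl4, Ccl6, Ccr2 and Cxcl3, all 6 exposed pools lay below both controls (5.6% of all genes), and in 0 genes above (6.47%). Beside them, 13 of 14 macrophage markers had a negative difference with genistein (median -0.28), with vinclozolin (-0.41) and with the mixture (-0.20). The medians of all genes were 0.03, -0.02 and 0. With genistein and with the mixture 0 of the 14 passed limma, and with vinclozolin 2 fell. Other lists leaned as well: adipocyte markers were negative in 10, 10 and 6 of 10, and luminal epithelial markers positive in 13, 11 and 9 of 14. The mean macrophage marker level was 0.11 and 0.20 in the controls and between -0.31 and -0.01 in the exposed pools. The part of these markers in the 6 genes was not tested. Ccl2 stood at 11.62 and 11.52 in the controls, at 10.85 and 11.08 after genistein, 11.16 and 11 after vinclozolin and 11.08 and 10.96 after the mixture. Its log2 differences of -0.60, -0.49 and -0.55 (SE 0.14 each) did not pass (adjusted p = 0.232, 0.121 and 0.157). Ccr2 stood at 10.19 and 9.52 in the controls and between 9.04 and 9.30 in the exposed pools, with differences of -0.68, -0.59 and -0.74 (SE 0.19 each) that did not pass either. The controls of Ccr2 lay 0.67 apart, and without control PND35 replicate 1 the mixture difference was -0.41. Cxcl3 stood at 6.76 and 6.38 against 5.90 and 5.45 after genistein (-0.89, SE 0.17, adjusted p = 0.232), 6.28 and 6.16 after vinclozolin (-0.35) and 5.95 and 6.21 after the mixture (-0.49).

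Vinclozolin at PND35 was the exposure comparison in which a chemokine passed. Ccl6 stood at 9.11 and 9.23 in the controls and at 8.53 and 8.52 in the vinclozolin pools and fell by 0.65 (SE 0.13, adjusted p = 0.0376), where 0.373% of all genes fell, and 0 of the 43 rose (0.966%). The genistein pools, at 8.66 and 9.03, and the mixture pools, at 8.84 and 9.10, lay in between (-0.33 and -0.20, not past the test). The call was lost without control PND35 replicate 1 (adjusted p = 0.104) or 2 (0.271), without vinclozolin PND35 replicate 2 (0.166), and without either control (0.0573), vinclozolin (0.0606) or mixture (0.0528) pool of PND50. Of 14 macrophage markers 2, Itgam and C1qb, fell beside it, and the marker level was -0.10 and -0.31 in the vinclozolin pools, which also had the high skin markers. Their part in the fall of Ccl6 was not tested. Genistein and the mixture had 0 genes past limma at this age, with 11 and 10 of the 43 at an unadjusted p under 0.05, where 11.1% and 15.3% of all genes were. Beside the genes above, Ccl7 with genistein (7.2 and 6.97 in the controls, 6.67 and 6.71 exposed; -0.39, SE 0.09, adjusted p = 0.232) and Cxcr3 with the mixture (6.41 in both controls, 6.19 in both exposed pools; -0.22, SE 0.07, adjusted p = 0.203) had the smallest p.

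**Figure D4:**
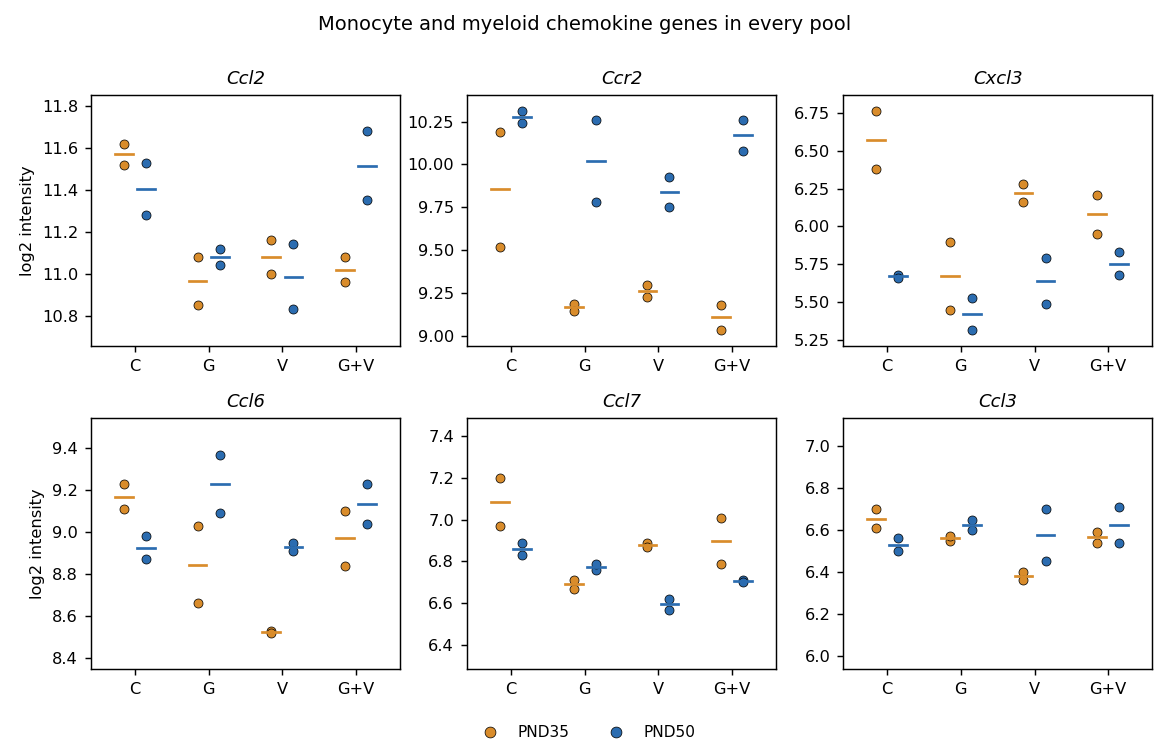
Log2 intensity of Ccl2, Ccr2, Cxcl3, Ccl6, Ccl7 and Ccl3 in every pool, by treatment (C control, G genistein, V vinclozolin, G+V mixture) and age; points are pools, bars are means of 2 pools, and each panel has its own axis. At PND35 the exposed pools of Ccl2 (10.85 to 11.16) are all below the control pools (11.52 and 11.62), and at PND50 the mixture pools of Ccl2 are level with the controls.

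At PND50 none of the 43 genes passed limma in any exposure, where 0.00848% of all genes rose with the mixture and 0% passed otherwise. The counts at an unadjusted p under 0.05 were 3 of 43 with genistein, 7 with vinclozolin and 5 with the mixture, where 2.6%, 6.04% and 7.41% of all genes were. Ccl2, which did not pass at this age either, had negative differences with genistein (-0.32, unadjusted 95% interval -0.62 to -0.02) and vinclozolin (-0.42, -0.72 to -0.12). With the mixture it had 0.11 (-0.19 to 0.42), and those pools at 11.35 and 11.68 were level with the controls at 11.28 and 11.53. Ccl7, at 6.89 and 6.83 in the controls, was lower in all 6 exposed pools (6.57 to 6.79), as were Ccl17 (-0.21 with vinclozolin, adjusted p = 0.8) and Cxcr3, and Ccr7 was higher in all 6 (7.48 to 7.65 against 7.46 and 7.44). That made 3 genes below both controls and 1 above, where 3.66% and 1.87% of all genes were. With genistein, Cxcl9 (0.22, SE 0.09) and Ccl6 (0.31, SE 0.13) were among the 3 smallest p and had a limma adjusted p of 1.

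The mixture pools at PND50 lay far apart in Cxcl10 and Cxcl11, and not in Cxcl9. Cxcl10 stood at 8.84 and 10.24 in the mixture pools and between 7.66 and 8.64 in the other 6 of that age. Cxcl11 stood at 6.76 and 7.89 against 6.06 to 6.59. Both mixture pools were thus above all others of their age in both genes, and replicate 2 was far above replicate 1. The differences from control were 0.98 for Cxcl10 (SE 0.45, adjusted p = 0.675) and 0.99 for Cxcl11 (SE 0.29, adjusted p = 0.509), and without mixture PND50 replicate 2 that of Cxcl11 was 0.43. Cxcl17 (0.41, SE 0.14, adjusted p = 0.556) and Cxcl14 (0.34, SE 0.13, adjusted p = 0.637) did not pass either. Cxcl9, the gene next to Cxcl10, stood at 9.19 and 9.16 in the mixture pools and at 9.08 and 8.93 in the controls. Cxcl10 was also highest in mixture replicate 2 at PND35 (9.16, against 7.23 to 8.44 in the other 7), a pool of other animals. The labels do not say whether equal replicate numbers link pools of different ages.

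**Figure D5:**
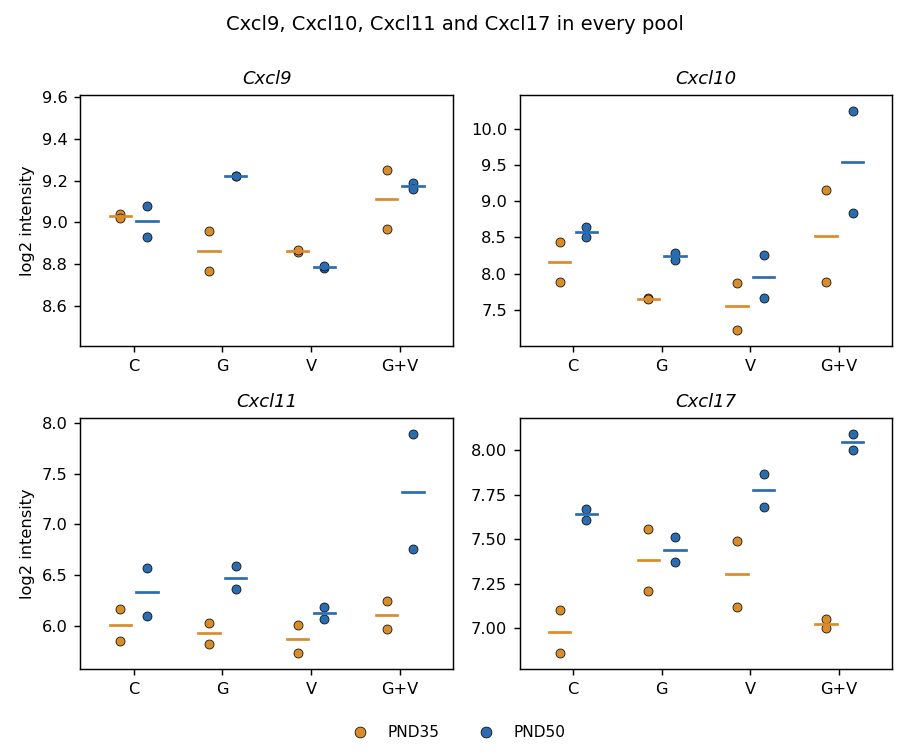
Log2 intensity of Cxcl9, Cxcl10, Cxcl11 and Cxcl17 in every pool, by treatment (C control, G genistein, V vinclozolin, G+V mixture) and age; points are pools, bars are means of 2 pools, and each panel has its own axis. Mixture replicate 2 at PND50 is the highest pool for Cxcl10 (10.24), Cxcl11 (7.89) and Cxcl17 (8.09), and not for Cxcl9.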

How the data were processed

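The authors deposited 1 value for each of 27342 probe sets and 16 arrays, between 2.2 and 13.9, read from that range as log2 intensities. Not given in the sources used here were the log base, background correction, normalization and summarization. The medians of the arrays ranged from 7.05 to 7.14, and the values were used as deposited. Groups and replicate numbers came from the sample titles. Probe sets were named through the platform annotation where it gave exactly 1 symbol (15097), keeping the brightest probe set per symbol, and all 50 chemokine genes matched RefSeq by gene identifier under the same symbol.

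Tests used limma 3.58.1 in R 4.3.3 (lmFit, then eBayes), fitting all 16 arrays with 1 mean for each group and 8 residual degrees of freedom, 14 contrasts, two-sided p-values and Benjamini-Hochberg adjustment over the 11796 genes above the filter. The genes described were up to 12 past the test with the smallest p, the 3 with the smallest p where none passed, and a panel of well-known members. From each pathway list up to 4 past the test were given. Cxcr2 and the couples were added after their values were seen, as were other genes given for completeness. The members and lists were chosen with earlier results of these data known. The fit was tested on simulated data. Alternatives were other filters, scalings, probe set summaries, a replicate block, array weights, a trend, fewer arrays and each pool left out. Figures used matplotlib 3.10.9.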

Additional observations from a re-analysis of the deposited data

Results flagged for a closer look

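In 7 of the 86 sets formed by the 8 pools of an age for each tested gene, 1 pool stood apart from the rest by Dixon's ratio, where chance flags about 1 in 20. The pools of an age come from 4 treatments, so a treatment can set a pool apart. At PND35, control replicate 1 was high for Ccr2 (10.19, next 9.52), genistein replicate 1 was high for Cx3cl1 (9.46, next 8.78) and Xcr1 (6.81, next 6.52), and vinclozolin replicate 2 was low for Ccr1 (6.51, next 7.0). At PND50, control replicate 2 was high for Ccl22 (7.72, next 7.04), and mixture replicate 2 was high for Cxcl10 (10.24, next 8.84) and Cxcl11 (7.89, next 6.76).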

How the results depend on the processing

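In the age average the 22 genes that rose and 4 that fell became 17 to 21 and 3 to 4 without 1 pool. With the filter at the 50th percentile, which left 21 of the members tested, 10 rose and 1 fell. Without both mixture PND35 pools 13 rose, and with the muscle covariate 0 rose and 0 fell (both added after the data were seen). In the controls the counts of 2 up and 1 down became 1 up without a filter, 4 up with quantile normalization, 8 and 2 with array weights, 2 down with a trend and 5 and 2 with only the compared arrays, and ran from 0 to 6 up and 0 to 2 down without 1 pool. With genistein the 2 that rose became 0 without a filter, with array weights or with the compared arrays alone, 1 with median centring or a trend, and 0 to 4 without 1 pool. With vinclozolin the 2 that rose became 1 at the 50th percentile and 1 with the replicate block, 0 with array weights or the compared arrays alone, and 0 to 2 without 1 pool, and quantile normalization made 1 fall. With the mixture the 20 that rose became 9 at the 50th percentile and 10 to 21 without 1 pool, and the 0 that fell became 1 with quantile normalization, array weights or the compared arrays alone and 0 to 1 without 1 pool. The fall of Ccl6 with vinclozolin at PND35 gave 0 calls with array weights or the compared arrays alone and 0 to 2 without 1 pool. The causes of these changes were not tested. The other exposure and difference counts stayed at 0 in each alternative run. Over 84 differences of single genes and these alternatives, 229 values lost the call. Another 17 values changed sign, in the age differences of Ccl2, Cxcl12, Cxcl13, Cxcl14 and Cxcr4, which did not pass as reported, and none that passed changed sign. Replicate numbers were not taken to pair the pools, since deviations from the group means correlated above 0.1 in only 8 of 28 group pairs (median 0.04). The replicate block moved no other count by over 1.5 times; it took Xcl1 with vinclozolin to an adjusted p of 0.0524 and Ccl4 with genistein to 0.0517 (limma).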
